A study of Sus scrofa with 96 samples.

Results

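The liver-restricted abundant genes were chosen by their measured levels, as the genes with a median CPM of 100 or more over the livers and below 1 over the testes of the same pigs. CPM is the count of a gene over the sum of counts on all Ensembl pig genes of its library, scaled to the same total in every library, so it is a share of reads and is not corrected for gene length. The medians were taken over the 46 livers and 34 testes sequenced with the stranded mRNA kit. Of the 25322 genes in the count files, 945 reached 100 CPM in liver and 137 of these stayed below 1 CPM in testis, and the 137 are called members in what follows. By comparison, 404 genes had 100 CPM or more in both tissues. The rule also sets aside 2 blocks of identifier numbers, and this removed 0 genes. Because liver and testis levels chose the members, they are described here without a test.

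The samples came from 48 non-castrated Danish Landrace boars from commercial production, divided into 3 classes of 16 by genetic merit for boar taint (BT), an off-odour of pork from skatole and androstenone, and the classes are called high, medium and low BT. The merit of a boar was given by the breeding values of its sire for skatole in fat and for human nose score, so it is not a measurement on the animal. Boars of the same sire were half-siblings at most. Liver was sampled directly after slaughter and testis after a period of cold storage of the carcass, and RNA of lower integrity went to a total RNA kit (2 livers, of 1 high and 1 low BT boar, and 14 testes). The number of reads on genes ranged from 3728775 to 12156143 over the stranded mRNA livers and from 4881825 to 18045966 over the stranded mRNA testes. One total RNA testis of low BT held only 379942 reads on 940 genes.

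The liver makes most of the proteins dissolved in blood plasma, among them carriers of fat, vitamins and hormones, clotting factors and parts of the complement system. Hepatocytes also hold the enzymes that turn ammonia into urea, break down amino acids, store and release glucose, and oxidise steroids, drugs and compounds from the gut such as skatole. Of 7 hepatocyte markers 6 were found among the named genes, and their summed level ranged from 58361 to 218920 CPM over the stranded mRNA livers. The germ cell, Leydig cell and Sertoli cell markers were low in liver, where the Leydig list summed to at most 7.57 CPM and the germ cell list to at most 32.0 CPM. In testis the same Leydig list (3 of 5 markers found) had a median of 4618 CPM and the germ cell list (5 of 5 found) a median of 20758 CPM.

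A gene symbol was found for 84 of the members, and 53 are known here only by their Ensembl identifier. By their symbols, many members were secreted plasma proteins. The 5 members of highest median liver CPM were APOC3, an apolipoprotein that slows the clearance of triglyceride-rich particles, TTR, the carrier of thyroxine and of retinol-binding protein, ENSSSCG00000005394, HPX, which binds free haem, and AHSG, the fetuin that keeps calcium phosphate in solution. APOC3 had a lowest, median and highest value of 5930, 10414 and 19743 CPM over the 46 livers and of 0, 0.684 and 74.0 CPM over the 34 testes. For TTR these values were 3933, 8085 and 15014 CPM in liver and 0, 0.504 and 32.5 CPM in testis. ENSSSCG00000005394 had 3047, 6875 and 12261 CPM in liver, and AHSG had 3238, 5521 and 11364 CPM against a testis median of 0.325 CPM. HPX ranged from 3556 to 8621 CPM in liver with a median of 6006 CPM, against a testis median of 0.292 CPM. No testis came near a liver for APOC3, TTR, HPX or AHSG, which is what the selection asked for at the median but not in each library.

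**Figure D1:**
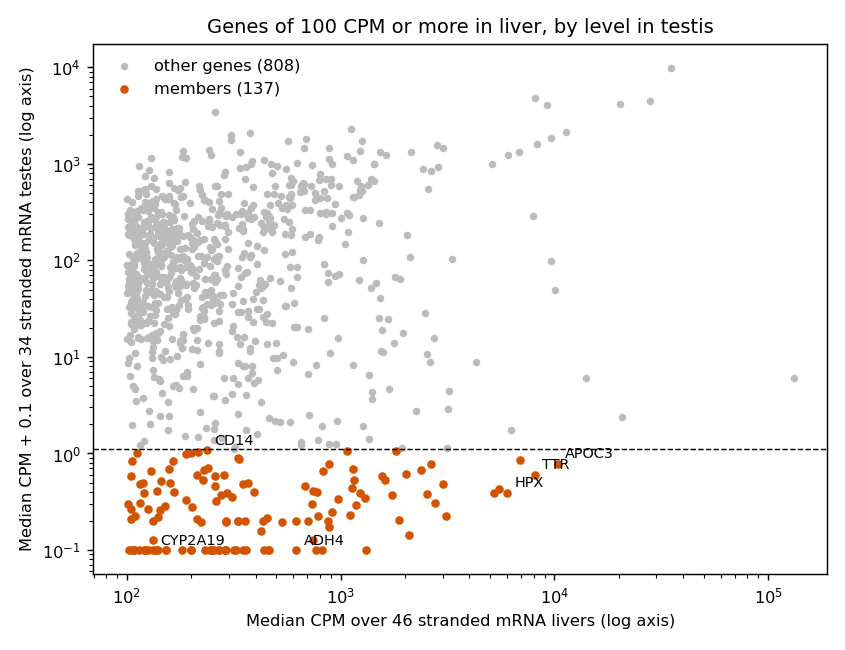
Median CPM over 46 stranded mRNA livers (horizontal, log axis) against median CPM plus 0.1 over 34 stranded mRNA testes (vertical, log axis) for the 945 genes of 100 CPM or more in liver, with the 137 members in orange, the other 808 genes in grey and a dashed line at the testis threshold of 1 CPM. APOC3, at 10414 CPM, is the member farthest to the right, and the row of points at the bottom holds the members with a testis median of 0.

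Of the members, 28 had a median of 1000 CPM or more in liver, 18 had 500 to under 1000 CPM, 46 had 200 to under 500 CPM and 45 had 100 to under 200 CPM. The testis median was exactly 0 for 39 members, among them ADH4, CYP2A19, C8A, PON1 and OTC. In a stranded mRNA testis a count of 0 allows a level of up to 0.166 to 0.615 CPM (3 counts), depending on the depth of the library. These limits cover counting error only. For 133 of the 137 members the lowest stranded mRNA liver was above the highest stranded mRNA testis.

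The thresholds fell in a continuous range of values. CPN1, a subunit of carboxypeptidase N, and TM4SF4 lay just inside the liver threshold at 101 and 102 CPM, whereas the bile acid receptor gene NR1H4 and ENSSSCG00000022084 lay just outside at 99.8 and 99.6 CPM. CD14, the lipopolysaccharide co-receptor, and ENSSSCG00000010546 were just inside the testis threshold at 0.984 and 0.968 CPM. C4BPB and CFB, both genes of the complement system, were just outside at 1.00 and 1.04 CPM although CFB had 3160.5 CPM in liver. With scaling by the trimmed mean of M-values (TMM) the same rule gave 175 genes, all 137 members included, and with means in place of medians it gave 124 genes, of which 119 were members.

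Well-known liver genes were therefore not all members. Of 128 symbols in 10 lists of liver functions 86 were found among the identifiers, and 39 members belonged to a list. A further 31 listed genes had 100 CPM or more in liver but 1 CPM or more in testis. ALB, the gene of serum albumin, had a median of 132168 CPM in liver and 6.02 CPM in testis, and APOE had 9668 and 98.4 CPM. The retinoid carrier RBP4 and the vitamin D carrier GC met both limits with liver medians of 3002 and 2753 CPM.

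In the coagulation and fibrinolysis list 9 of the 15 genes found were members. The most abundant were the fibrinogen chain FGG (2654 CPM), the plasmin precursor PLG (2547 CPM) and CPB2 (1735 CPM), a carboxypeptidase that slows the breakdown of clots. In the list of plasma carriers 7 of 11 genes were members, and in that of the urea cycle and amino acids 7 of 14. The latter included TAT (1294 CPM) and TDO2 (1144 CPM), the first enzymes of tyrosine and tryptophan breakdown, and the arginase ARG1 (702 CPM), the last enzyme of the urea cycle. Of the phase I enzymes, ADH4 (621 CPM), CYP1A2 (181 CPM) and CYP2A19 (132 CPM) were among the members, whereas CYP2E1 had 4.31 CPM in testis and FMO1 had 67.5 CPM. Only 3 of 13 complement genes were members, namely C8B (911 CPM), C8A (819 CPM) and C6 (226 CPM), which form part of the membrane attack complex. The lists of inhibitors and acute phase proteins and of glucose and lipid metabolism had 3 members each. They were ITIH1 (2018 CPM), CRP (615 CPM) and LBP (285 CPM) in the former, and PCK1 (1101 CPM) and GYS2 (330.5 CPM) were among those in the latter. The apolipoproteins (6 of 11 symbols found) had APOC3 and APOA2, and the hepatic factors (7 of 9 found) had IGFBP1. Of the 7 phase II symbols only 1 was found among the identifiers, and it was not a member.

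Some members lie close to each other in the genome. In the RefSeq table of the pig (assembly Sscrofa11.1, which is not the build of the counts, so its coordinates are not given) all 84 symbols were found. AHSG, FETUB and HRG, 3 related cystatin-type plasma proteins, followed each other without another protein-coding gene between them. C8B and C8A were neighbours, as were the paraoxonase genes PON1 and PON3. By identifier number, SERPINA6, SERPINA11, ENSSSCG00000002482 and ENSSSCG00000002487 formed a run in which each was within 5 of the next. Of the 87 members numbered below the second block set aside, 25 (28.7%) had another member within 5, against 69 of 292 (23.6%) for the genes of 100 CPM or more in both tissues and 190 of 587 (32.4%) for the other genes of 100 CPM or more in liver. Such a share also grows with the number of genes in a set, and the sets differ in size. The 3 shares are therefore not comparable with each other and are given as a description.

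Together the members took a median of 12.5% of the reads on genes in the stranded mRNA livers, with a range of 8.87% to 16.8%. In the stranded mRNA testes the median was 0.00412% and the range 0.00305% to 0.0572%. APOC3 alone made up a median of 8.45% of the reads on members, and the 10 most abundant members 44.9%. The summed level was 119972 ± 16066 CPM (SD, n = 16) in livers of high BT, 127885 ± 16864 CPM (SD, n = 16) in medium BT and 121266 ± 11726 CPM (SD, n = 16) in low BT. The ranges of the 3 groups overlapped, from 95279 to 149738 CPM in high BT, from 100818 to 168007 CPM in medium BT and from 88685 to 138971 CPM in low BT. In bulk tissue, fewer hepatocytes and less of these RNAs per hepatocyte cannot be told apart.

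**Figure D2:**
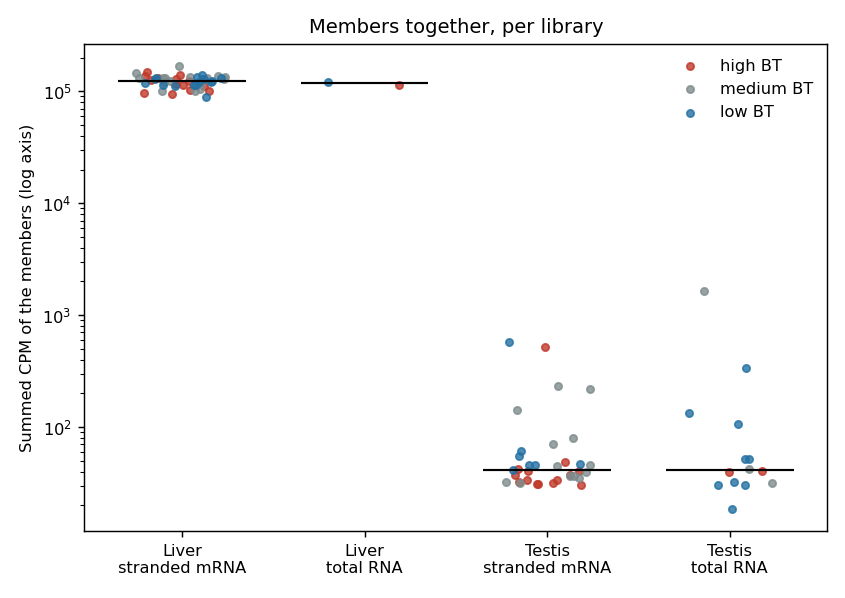
Summed CPM of the 137 members (log axis) in each of the 96 libraries, by tissue and library kit, with points coloured by BT merit and a bar at the median of each column. The livers lie between 88685 and 168007 CPM, and most testes lie under 100 CPM with a few above 200 CPM.

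The 2 livers and 14 testes made with the total RNA kit were not used to choose the members, and they gave a test on other libraries. All 137 members were called higher in these livers than in these testes by limma at an adjusted p under 0.05, where 73.2% of the 14924 genes tested were called, 17.6% higher and 55.6% lower in liver. The fitted log2 differences ranged from 6.74 to 13.9, against a median of -1.13 over all genes tested. Since many testis values were 0, the fitted sizes depend on the offset that voom adds and are not bounds. Both livers were above every total RNA testis for 137 of 137 members. With only 2 livers this test rests on little replication, and without sample quality weights 106 members were called higher, or 137 when the testis library with counts on 940 genes was also left out.

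NAGS, whose enzyme makes the activator of the first step of the urea cycle, had the smallest fitted difference (6.74, SE 0.43, limma adjusted p = 4.7e-12). It had 47.1 and 52.6 CPM in the livers of boars 1306 and 3109 and 0 to 5.19 CPM in the 14 testes, so the groups did not overlap. HRG, a histidine-rich plasma protein of coagulation and immunity, had the highest fitted difference, with 5940 and 7624 CPM in liver and 0 to 58.2 CPM in testis. The liver limit of 100 CPM was met by the mean of these 2 livers for 125 members and by both livers for 106. Both livers lay inside the range of the stranded mRNA livers for 103 members. In the total RNA testes 132 members had a median under 1 CPM. Boars 1306 and 3109 also had their testis in total RNA libraries. Within each of these boars 137 of 137 members were higher in liver, where the lowest member had 18.4 and 20.8 CPM, while the highest member in testis had 3.15 and 2.17 CPM.

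A few testes held more reads on members than the rest. The total RNA testis of boar 7110 (medium BT) had a summed level of 1644 CPM and the stranded mRNA testis of boar 1137 (low BT) 572 CPM, whereas the median was 41.2 CPM in each kit. In boar 1137, 135 of the members had at least 1 count, led by APOC3 (74.0 CPM), ENSSSCG00000015068 (51.1 CPM) and TTR (32.5 CPM). Across the members its values ranked much like the liver medians, with a Spearman correlation of 0.796 over 137 genes of 1 library, against a median of 0.148 over the stranded mRNA testes. Boar 7110 had AHSG at 119 CPM, HPX at 101 CPM and 38 members above 10 CPM, with a correlation of 0.726. The total RNA testis of boar 1314 (low BT) reached 335 CPM with a correlation of 0.730.

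Of the hepatocyte markers that are not members, ALB and CYP2E1 were high in these libraries, whereas APOA1 was not. ALB was at 1555 CPM in the testis of boar 7110, 525 CPM in that of boar 1137 and 302 CPM in that of boar 1314, against a median of 5.82 and a highest value of 126 CPM over 42 testes, which leave out these libraries and also those of boars 1338, 8338 and 8308 described next. CYP2E1 was at 62.3, 32.6 and 10.5 CPM in the testes of boars 7110, 1137 and 1314, against at most 9.31 CPM in the 42 testes. CPS1 was at 118, 23.4 and 24.7 CPM, against at most 27.4 CPM. APOA1 was at 62.6, 70.8 and 63.8 CPM, below the median of 93.1 CPM over the 42 testes, which pool both kits. By kit, its median was 107.8 CPM over all stranded mRNA testes and 63.2 CPM over all total RNA testes. The total RNA testes of boars 7110 and 1314 were thus near the median of their kit. The stranded mRNA testis of boar 1137 was below that of its kit. The summed hepatocyte list (6 of 7 markers found, with the members TTR and ARG1) was 1868, 687 and 415 CPM in these libraries, against 0 to 235 CPM in the 42 testes. It was 117 CPM in the testis of boar 1338, 153 CPM in that of boar 8338 and 251 CPM in that of boar 8308. Germ cell markers were present in the testes of boars 7110, 1137 and 1314, with sums of 16319, 26135 and 14479 CPM. The part of other tissue or of other libraries in these values was not tested.

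In other testes the reads belonged to 1 member or to a few. ENSSSCG00000011147 was at 477 CPM in the testis of boar 1338 (high BT) and at 173 CPM in that of boar 8338 (medium BT). Its median in the 34 testes was 0.338 CPM, and it made up 92.4% and 79.1% of the reads on members in those libraries. ALB stayed at 8.78 and 17.9 CPM there. In the testis of boar 8308 (medium BT) the members above 10 CPM included CD14 (46.03 CPM), the paraoxonase PON3 (29.6 CPM), the copper protein CP (19.8 CPM) and the clotting factor F5 (17.7 CPM). That library also stood apart in its cell markers. The red cell list (HBB and ALAS2) summed to 21911 CPM and the macrophage gene MARCO, the only one found of 4 markers, was at 79.5 CPM. Its germ cell and Leydig lists summed to 603 and 57.9 CPM, so the defining testis markers were low. Their part in the levels of CD14 and PON3 was not tested. All testis values of the selection are medians, and without the 5 testes of highest sum the median summed level moved from 41.2 to 39.4 CPM.

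The members differed widely in how much they varied between boars. The SD of log2(CPM + 1) over the 46 stranded mRNA livers had a median of 0.61 over the members, 0.41 over the 404 genes abundant in both tissues and 0.45 over the 808 other genes of 100 CPM or more in liver. An SD above 1 was found for 23 members (16.8%), 5 of the genes abundant in both tissues (1.24%) and 29 of the 808 other genes (3.59%). The highest liver was more than 10 times the lowest for 52 members. These shares describe the gene sets and were not tested.

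The least variable member was PROC, the gene of the anticoagulant protein C, with 745, 1153 and 1604 CPM as lowest, median and highest and an SD of 0.24. The highest SD was that of ENSSSCG00000013370 (2.25), which had 16.8, 189 and 23991 CPM. Its 3 highest livers were at 8681, 9333 and 23991 CPM and the fourth at 1223 CPM, so a few livers stood far above the others. CRP, the acute phase C-reactive protein, had 36.9, 615 and 9648 CPM, and the liver of boar 8325 (medium BT) was the highest for CRP, ENSSSCG00000013370 and LBP, the carrier of bacterial lipopolysaccharide.

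CYP2A19, PON3, NNMT and ENSSSCG00000022808, a gene without a symbol, were also among the most variable members. CYP2A19, a pig cytochrome P450 of the family that oxidises skatole, had 0.948, 132 and 805 CPM (SD 2.11), and 8 of the 46 livers were under 20 CPM. ENSSSCG00000022808 had 1.801, 199 and 576 CPM (SD 2.13), and its lowest liver was that of boar 8106 (medium BT), as for CYP2A19. PON3 had 9.37, 108 and 620 CPM (SD 1.76), with 11 livers under 20 CPM. NNMT, which methylates nicotinamide, ranged from 17.7 to 1555 CPM.

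Single livers decided the range of some members. VTN, the cell adhesion and complement-regulating protein vitronectin, was at 5.37 CPM (52 reads) in the liver of boar 9135 (medium BT), the next lowest liver was at 247 CPM and the median was 733 CPM. ENSSSCG00000015068, whose identifier number precedes that of APOC3, was at 133 CPM in the liver of boar 8117 (medium BT), against a next lowest of 575 CPM and a median of 5194 CPM. APOC3 in the same 46 livers had no value under 5930 CPM.

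**Figure D3:**
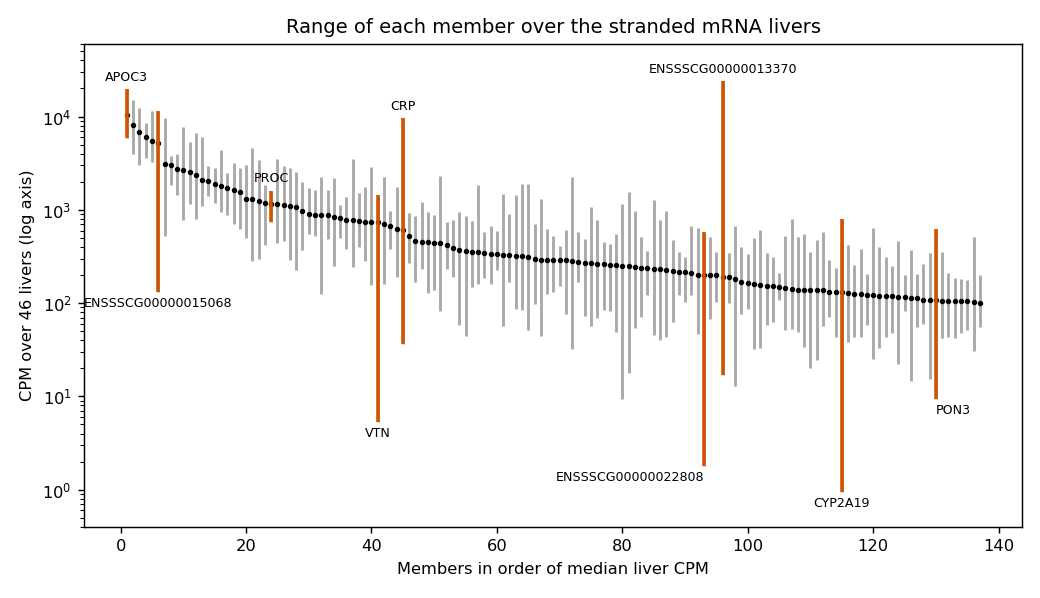
Lowest to highest CPM (vertical lines, log axis) and median CPM (dots) of each of the 137 members over 46 stranded mRNA livers, in order of median. The members named in the text are in orange: PROC spans 745 to 1604 CPM, whereas CYP2A19 spans 0.948 to 805 CPM and the single low liver of VTN lies at 5.37 CPM.

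Some pairs of members also varied together across the livers. Pearson correlations of log2(CPM + 1) were computed for all 9316 pairs of members over the 46 stranded mRNA livers, and 3004 pairs (32.2%) had a Benjamini-Hochberg adjusted two-sided permutation p under 0.05, of which 2350 were positive. By Spearman correlation it was 2734 pairs. Pairs of other genes were not tested, so no share stands beside this count. The median pair had r = 0.13, against 0.19 for the genes abundant in both tissues and 0.10 for the 808 other genes of 100 CPM or more in liver. The 95th percentile of r was 0.66, 0.78 and 0.67 in these sets, so high correlations were not particular to the members. The first principal component held 26.2% of the variance of the members. All values of a liver come from 1 library with 1 depth, so a correlation of 2 members includes what the library as a whole contributes.

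The strongest pair was ENSSSCG00000008998 and ENSSSCG00000024929 (r = 0.98, rho = 0.95), and both followed the fibrinogen chain FGB (r = 0.96 and r = 0.96). ENSSSCG00000008998 directly follows FGB in identifier number. The chain FGG followed FGB less closely (r = 0.77, rho = 0.67). CYP2A19 and ENSSSCG00000022808 had r = 0.96 and rho = 0.94, and r = 0.95 without the 2 livers farthest from the median. The complement protein C6 followed the clotting factor F9 (r = 0.94, rho = 0.94) and PLG (r = 0.93, rho = 0.94). For each of these pairs the permutation p of r and of rho was 1e-05, the smallest that 100000 permutations can give, and the adjusted p was 0.000126 for r and 0.000144 for rho. Without the 2 farthest livers their r was between 0.73 and 0.97.

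Average linkage at r = 0.6 gave 8 groups of 4 or more members. The most numerous, of 15 members, held GC, PLG, CPB2, OTC, FGB, LBP, C6, F9, F13B and 6 genes without a symbol, with a median pair r of 0.75. A second of 12 members held C8A, PON1, AFM, DMGDH and SMPDL3B (median pair r 0.76). Another of 11 held, among others, F5, PLA2G12B, ENSSSCG00000030522, TDO2, ADH4, HAO1 and DPYS (median pair r 0.73). The group of 4 held the tyrosine enzyme TAT, the amino acid transporter SLC38A4, the uridine phosphorylase UPP2 and ENSSSCG00000023457 (median pair r 0.75).

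The mean of the first group, each gene scaled to its mean and SD, had r = 0.47 with the log2 number of reads on genes, r = 0.30 with ALB and r = -0.51 with the red cell markers over the 46 livers. For the group of F5 the same values were -0.01, 0.04 and 0.12. The part of depth and of blood in the first group was not tested.

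**Figure D4:**
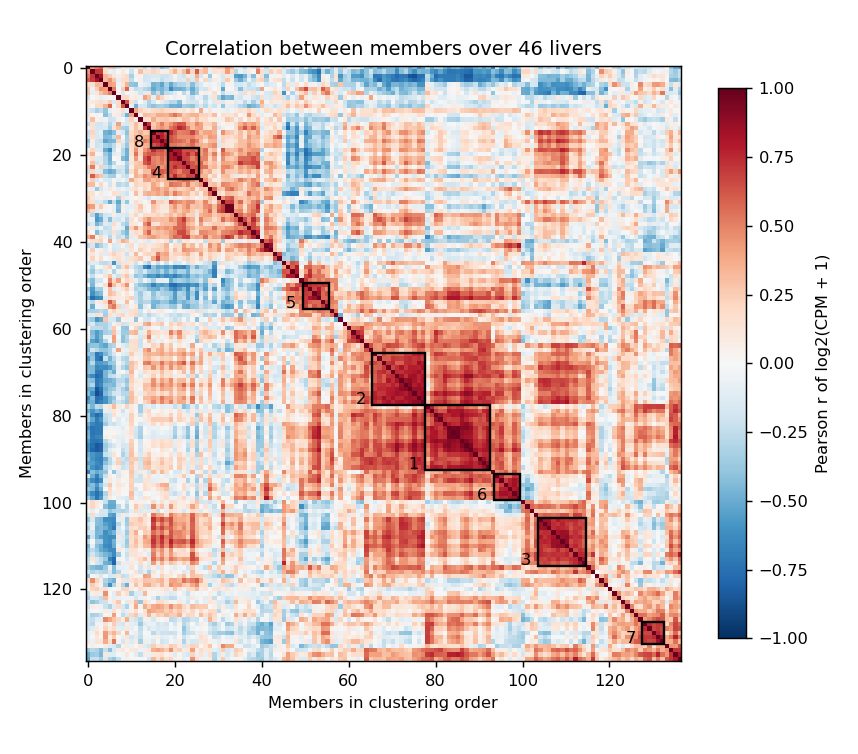
Pearson r of log2(CPM + 1) between the 137 members over 46 stranded mRNA livers, in the order of average-linkage clustering, with red for positive and blue for negative values and boxes around the 8 numbered groups of 4 or more members. Groups 1 and 2 (15 and 12 members) lie next to each other in the clustering order.

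APOC3, the member of highest liver CPM, followed few others. The 3 members most like it were SERPINA11, a serpin (r = 0.60, rho = 0.53), ENSSSCG00000028330 (r = 0.50, rho = 0.47) and ENSSSCG00000022770 (r = 0.44, rho = 0.39). Their permutation p of r was 2e-05, 0.00032 and 0.00245, adjusted over all pairs to 0.000218, 0.00212 and 0.011, and without the 2 farthest livers r was 0.56, 0.46 and 0.40. For rho the permutation p was 0.00026, 0.0011 and 0.00768, adjusted to 0.00203, 0.00643 and 0.0298. ENSSSCG00000028330 was also in the most negative pair, with SMPDL3B (r = -0.88, rho = -0.88).

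Neighbouring genes did not always vary together. HRG had r = 0.76 with FETUB and 0.75 with AHSG (permutation p of r 1e-05 and 1e-05). C8A and C8B, the subunits of 1 protein complex, had r = 0.42 (rho = 0.39, permutation p = 0.00378, adjusted p = 0.0156). PON1 and PON3 had r = -0.08 (rho = 0.10, permutation p = 0.618). TTR and RBP4, whose proteins travel together in plasma, had r = 0.26 (rho = 0.27, permutation p = 0.0766). The cortisol-responsive and fasting-responsive genes TAT, PCK1 and IGFBP1 had r = 0.52, 0.63 and 0.64 between them, with permutation p of r of at most 0.00021.

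Genetic merit of BT was the question of the study, and for the members it was asked in liver, where they are expressed. In the limma fit, livers of high BT had lower F5 and PLA2G12B than livers of low BT and higher ENSSSCG00000002482, while most members differed by less than their spread. Of the 137 members 5 were called (1 higher and 4 lower in high BT) by limma at an adjusted p under 0.05, that is 3.65%, against 3.36% of the 12225 genes tested, of which 0.131% were called higher and 3.23% lower. The share of members called was thus near that of all genes. It was below that of the 808 other genes of 100 CPM or more in liver (7.43%) and of the 404 genes abundant in both tissues (9.16%). The median log2 fold change of the members was 0.01, against -0.07 over all genes tested. The red cell list, for comparison, had medians of 1298, 1352 and 2103 CPM in high, medium and low BT with overlapping ranges, and its part was not tested.

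F5, clotting factor V, had 165, 287 and 986 CPM as lowest, median and highest value in 16 livers of high BT, 161, 335 and 515 CPM in medium BT and 218, 414 and 1316 CPM in low BT. The groups overlapped, and the highest values in high and low BT were the total RNA livers. The log2 fold change was -0.51 (SE 0.14, limma adjusted p = 0.0341). A two-sided permutation test of the mean log2(CPM + 1) of 16 against 16 livers gave an unadjusted p = 0.0122. F5 was chosen for that test by its limma call in the same livers, so this p is not separate support. The difference of mean log2(CPM + 1) was -0.52 among the stranded mRNA livers alone. PLA2G12B, a secreted phospholipase-like protein, had 90.6, 144 and 222 CPM in high BT and 105, 187 and 334 CPM in low BT, with overlapping ranges and a log2 fold change of -0.44 (SE 0.13, limma adjusted p = 0.0442). ENSSSCG00000030522 was also called lower (-0.55, SE 0.15, limma adjusted p = 0.0341), with medians of 1817 CPM in high BT and 2472 CPM in low BT. F5, PLA2G12B and ENSSSCG00000030522 were in the same group of 11 that varied together, so they are not separate results.

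ENSSSCG00000002482 was the member called higher in high BT. It had 275, 409 and 2302 CPM in high BT, 114, 507 and 1832 CPM in medium BT and 64.8, 309 and 646 CPM in low BT. Several high BT livers exceeded every low BT liver, while the medians were near each other. The log2 fold change was 1.21 (SE 0.35, limma adjusted p = 0.0448), with an unadjusted permutation p of 0.0025 in the same livers that gave the call. Its identifier number lies in the run with SERPINA6 and SERPINA11.

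These calls depended on the fit. edgeR and DESeq2 called 0 members, with 15 members at an unadjusted p under 0.05 in each, and limma without sample quality weights called 0, with 19 at an unadjusted p under 0.05. With TMM factors before voom 1 member was called higher and 0 lower, and over all genes 34 were higher and 104 lower, against 16 and 395 without these factors. Of 10 alternative fits, 4 called F5, 4 called ENSSSCG00000030522, 3 called PLA2G12B and 4 called ENSSSCG00000002482. These calls were lost without some single livers: of 48 such fits they stood in 36 for F5, 35 for ENSSSCG00000030522, 34 for PLA2G12B and 30 for ENSSSCG00000002482. The sign of these differences was the same in each of these fits.

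**Figure D5:**
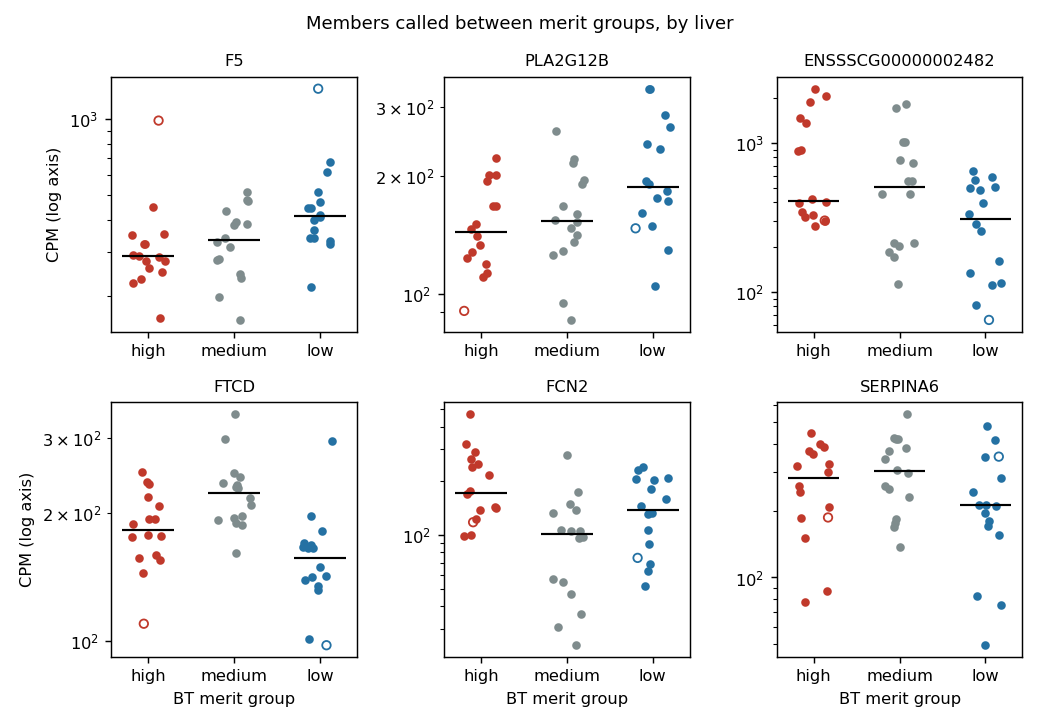
CPM (log axis) of 6 members called between merit groups in the livers of 16 boars each of high, medium and low BT, with bars at the group medians and open circles for the total RNA livers. The groups overlap for each gene; the median of F5 is 287 CPM in high BT and 414 CPM in low BT.

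Livers of medium BT had higher FTCD, SERPINA6 and CD14 and lower FCN2 than livers of low BT. Of the members 10 were called (8 higher and 2 lower), or 7.30%, against 15.5% of the 12225 genes tested. The share was 20.5% for the 808 other genes of 100 CPM or more in liver and 26.2% for the 404 genes abundant in both tissues. The directions differed from those of all genes, where 0.916% were called higher and 14.6% lower. The median log2 fold change was 0.09 over the members and -0.19 over all genes tested. Scaling by TMM moved the median of all genes to -0.01 and that of the members to 0.25, and then 13 members were called higher and 0 lower, with 389 genes higher and 344 lower in all. The members called lower are thus not called under that scaling, whereas the position of the members above the median of all genes was kept.

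FTCD, an enzyme of histidine breakdown that feeds the folate pool, had 161, 223 and 342 CPM in medium BT and 97.6, 157 and 295 CPM in low BT. All 16 medium BT livers were above the low BT median, and the ranges overlapped. Its log2 fold change was 0.53 (SE 0.11, limma adjusted p = 0.00163). It was called under 10 of 10 alternatives and in 48 of 48 fits that left out 1 liver. SERPINA6, the plasma carrier of cortisol, had 137, 302 and 545 CPM in medium BT and 49.5, 211 and 483 CPM in low BT, with a log2 fold change of 0.83 (SE 0.25, limma adjusted p = 0.0197). It was called under 7 of 10 alternatives, with a log2 fold change of 0.55 to 0.96 and an adjusted p of up to 0.166, and the call was lost without the liver of boar 3309 (low BT), with an adjusted p of 0.0629.

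CD14 differed by 0.36 (SE 0.11, limma adjusted p = 0.0216), with 140, 266 and 359 CPM in medium BT and 123, 206 and 283 CPM in low BT. Without the liver of boar 3309 its adjusted p was 0.051. The only macrophage marker found, MARCO, had medians of 21.7 CPM in medium BT and 18.7 CPM in low BT. Among the other members called higher, ENSSSCG00000004001 (0.55, limma adjusted p = 0.00419) and ENSSSCG00000024682 (0.60, limma adjusted p = 0.00905) were called in 48 of 48 fits that left out 1 liver and under 9 of 10 alternatives each. Without the liver of boar 3309 the number of members called fell to 3, and without that of boar 1113 (medium BT) it was 16.

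FCN2, the ficolin that starts the lectin pathway of complement, had 24.3, 101 and 279 CPM in medium BT, 51.6, 138 and 238 CPM in low BT and 98.4, 172 and 470 CPM in high BT. It was lowest in medium BT, so its order did not follow merit. The log2 fold change of medium against low BT was -0.76 (SE 0.24, limma adjusted p = 0.0266), and it was called under 6 of 10 alternatives, with values between -0.78 and -0.25 and an adjusted p of up to 0.587. FCN2 was also the 1 member called between high and medium BT (1.08, SE 0.24, limma adjusted p = 0.0359), where 0.0982% of the genes tested were called, 0.0818% higher and 0.0164% lower. That call stood under 4 of 10 alternatives, with an adjusted p of up to 0.158. edgeR called 0 members in that contrast, with 26 at an unadjusted p under 0.05, and DESeq2 called 1 member, which was lower in high BT. The contrasts share the livers of each group, so the medium BT livers enter both results for FCN2.

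By function few genes of the lists were called with merit. In the coagulation list F5 was the 1 gene of 15 called between high and low BT, and the median log2 fold change of the 9 members was 0.04. Of the 8 phase I genes found, 1 was called lower in high than in low BT, a member not reported here by name. The median log2 fold change was -0.34 over these genes and -0.55 over the 4 members among them. The 1 phase II gene found was not called. Of the phase I enzymes, CYP2A19 had 4.20, 145 and 495 CPM in high BT, 0.948, 118 and 805 CPM in medium BT and 49.7, 159 and 875 CPM in low BT, and its log2 fold change of -0.80 between high and low BT did not pass (limma adjusted p = 0.652). CYP1A2 had medians of 168, 206 and 177 CPM in high, medium and low BT (0.02, limma adjusted p = 0.989). None of the 11 plasma carrier, 6 apolipoprotein, 13 complement, 6 inhibitor and acute phase, 14 urea cycle and amino acid, 5 glucose and lipid or 7 hepatic factor genes was called by limma between high and low BT. CRP, for example, had medians of 497, 596 and 840 CPM in high, medium and low BT (-0.99, limma adjusted p = 0.414). Between medium and low BT, SERPINA6 of the carriers and F10 of the coagulation list, the latter not a member, were called higher.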

How the data were processed

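Paired-end RNA-Seq of liver and testis was processed by the authors, who used CutAdapt 1.8.1 and Trimmomatic 0.33 for trimming, the STAR aligner with the pig genome build 10.2 (Ensembl version 79), and HTSeq 0.6.0 for counting (versions from the submitters' processing notes). The deposited values were raw counts per gene. The 5 rows of each file that name no gene held 37.6% to 77.5% of its entries and were left out. Groups came from the sample titles, and the library batch from the submitters' labels. All stranded mRNA livers were in batch 1, so within-batch values are those of the stranded mRNA livers. No 2 libraries held identical counts. Symbols came from a table of Ensembl pig genes that matched 11804 of 25322 identifiers; its release may differ from version 79.

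The members and gene lists were chosen with earlier results of these data known. As in the study, genes averaging over 5 counts were fitted with voom with sample quality weights and limma 3.58.1 (R 4.3.3) over all 48 livers and 3 merit groups, without covariates, and called at a Benjamini-Hochberg adjusted p under 0.05. The study included fewer liver genes and also filtered its calls by a Kruskal-Wallis test over the 3 merit groups, which was not applied here. Alternatives were edgeR 4.0.16, DESeq2 1.42.0, TMM factors, scaling by reads on genes that are not members, no weights, no minimum count or 10 counts in every library, only the contrasted groups, a covariate for the kit, and the stranded mRNA livers alone. Fits that left out 1 liver, the total RNA fit without both the few-gene library and the weights, and the testes without the 5 of highest sum were added after seeing the data. The number in the title is the boar, so liver and testis of the same number came from the same animal; a fit with the boar as replicate block was run for the total RNA libraries, without quality weights. P-values do not account for half-siblings. The fits were also run on simulated counts. These had the same dispersion for all genes and no kit effect, and their tissue contrast left out the few-gene library. They do not measure the error rates of the fits to the real counts. Named genes were the 5 members of highest liver CPM, those of highest and lowest SD, those nearest each threshold, the up to 2 members of lowest adjusted p called in each direction between high and low BT, the smallest difference in the total RNA libraries, the 3 members most like APOC3, and the 3 of highest liver CPM in each list. VTN, CYP2A19, PON3, NNMT, PON1, TTR with RBP4, further called members, other strong pairs and single testis values were named after their values were seen. Correlations and permutation tests (100000 resamples, two-sided) used Python 3.11.15 and scipy 1.17.1. Some members are not reported here by name.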

Additional observations from a re-analysis of the deposited data

Results flagged for a closer look

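Within groups of libraries of the same tissue, kit, batch and merit, the summed CPM of the members and the number of members with a count were searched for single libraries far from the rest. Of 8 sets searched, 3 had such a library, and about 1 set in 20 is expected by chance. The testis of boar 1137 had 572 CPM, against 41.6 to 60.6 CPM in the 6 other stranded mRNA testes of low BT. The testis of boar 8308 had 233 CPM, against 34.8 to 79.3 CPM in the 6 other stranded mRNA testes of medium BT in batch 1. The total RNA testis of boar 1314 had 335 CPM, against 18.4 to 134 CPM in the 8 others of low BT. The cell markers of these libraries are given with the testis values above, and their part was not tested.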

How the results depend on the processing

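In the total RNA libraries 137 members were called higher in edgeR and in DESeq2. With the boar as replicate block, without quality weights, 137 were called, against 106 in the fit without weights or block. Only the 2 boars with both tissues in these libraries bear on the blocked difference and on each gene's own spread in that fit. The blocked count is therefore not a stronger result than the count without a block. The number of members was 92 to 182 under other thresholds, means or scalings. The median SD over the livers stayed within the spread of the members. The median summed CPM in liver, 124592, was 176137 with TMM and 68561 without the 10 most abundant members. Between high and low BT (5 called) the number was 1 with TMM, and 0 with edgeR, DESeq2, no sample quality weights, no minimum count or only the contrasted groups, with 411 genes called in all against 138, 1, 3, 1, 70 and 156. Between medium and low BT (10 called) it was 5 with edgeR, 2 without weights and 6 with only the contrasted groups, with 1898 genes called in all against 216, 602 and 1826. Between high and medium BT (1 called) it was 0 with TMM, edgeR, no weights, 10 counts in every library and only the contrasted groups. Leaving out 1 liver gave 0 to 8, 3 to 16 and 0 to 2 members called in these contrasts. The count between high and low BT was 0 without the liver of boar 1331, 7305 or 9313 (high BT) or of 1101 or 1105 (low BT), 1 without 7306 or 9128 (high BT) or 3102, 3114, 3309, 8311 or 9137 (low BT), 2 without 7107 and 3 without 9129 (high BT), and 8 without 1127 (low BT). Between medium and low BT it was 3 without 3309, 5 without 8106, 6 without 8308 or 7312 and 16 without 1113. FCN2 was not called between high and medium BT without 7106, 1338, 7107, 7131, 8332, 9129, 9138 or 9313 (high BT) or 3128, 7110, 7112, 8102, 8106, 8117 or 8308 (medium BT), and 2 members were called without 3130 (medium BT). Members at low CPM in testis rest on few counts, so their order there is not resolved. The causes of these changes were not tested.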
